A study of Mus musculus with 2 samples.

Results

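The common gamma chain, gp130 and 8 ligand-specific chains of these and related cytokine receptors were examined in the leukemic stem cells (LSCs) of mice with BCR-ABL-driven chronic myeloid leukemia (CML). The 10 genes were a list of symbols, drawn up with earlier results of these data known and with no threshold on their values, out of 23284 genes listed in both libraries. They comprised 2 shared chains, Il2rg (the common gamma chain) and Il6st (gp130), and 8 ligand-specific chains, Il2rb, Il4ra, Il7r, Il9r, Il21r, Il13ra1, Il6ra and Il10ra. All 10 were at or above 0.1 FPKM (a read count divided by transcript length and by library size) in both libraries.

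RNA-seq compared 1 WT library with 1 STAP-1 KO library, to ask which genes depend on the adapter STAP-1 in CML LSCs. Both were on the C57BL/6J background, from mice 8 to 14 weeks old, and both carried human BCR-ABL with green fluorescent protein (GFP) from a retrovirus. Transduced stem and progenitor cells of WT or STAP-1 KO donors, together with normal marrow cells, were given to lethally irradiated congenic mice, and GFP+ CD45.2+ LSK cells (lineage-negative, Sca-1+ and c-Kit+) were sorted at day 11. How many mice entered each library is not given in the sources used here. With 1 library per genotype there is no replicate check, no p-value is given, and genotype, mouse, sort and library preparation cannot be told apart. Stap1, the targeted gene, had 62.0 FPKM in WT against 0.309 FPKM in STAP-1 KO, which matches the labels. Of the sorting antigens, Kit (c-Kit) had 468 and 30.1 FPKM and Ly6a (Sca-1) 285 and 106 FPKM, the WT value first. From the steps between low values, the effective depth was 7540000 reads for WT and 10480000 reads for STAP-1 KO. Read numbers below are estimates from these depths, and their 95% intervals cover counting error only.

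Type I cytokine receptors are built from chains that bind a particular ligand and chains that several cytokines share, and they signal through JAK kinases bound to their tails, which phosphorylate STAT factors. Il2rg carries JAK3 and completes the receptors for IL-2, IL-4, IL-7, IL-9, IL-15 and IL-21. Il6st carries JAK1, JAK2 and TYK2 and serves IL-6, IL-11, LIF and oncostatin M. Il4ra together with Il13ra1 forms the type II receptor for IL-4 and IL-13, and Il10ra is the ligand-binding chain for IL-10, which uses neither shared chain but pairs with Il10rb. In blood-forming tissue these receptors are best known for lymphocyte growth (Il7r, Il2rb), mast cell and T cell growth (Il9r), type 2 responses (Il4ra) and the restraint of myeloid cells (Il10ra).

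The sequences before the RefSeq start sites of 4 chains are shown because these genes had the largest difference (Il9r), the one member higher by 2-fold or more as deposited (Il21r), its direct neighbour (Il4ra) and the one STAT5-type match (Il7r). Each is the 250 bases before the RefSeq start on GRCm38.p6, 5′ to 3′ on the strand of the gene, and capitals mark matches to any of 8 motifs. The RefSeq start equals the outermost GENCODE start of Il9r and Il21r, but lies 300 bases inside the GENCODE gene for Il7r and 151 bases inside it for Il4ra, so that the Il7r window is wholly within that gene and the Il4ra window partly. Il9r lies at chr11:32200280-32200529 on the minus strand, Il7r at chr15:9529877-9530126 on the minus strand, Il4ra at chr7:125552021-125552270 on the plus strand and Il21r at chr7:125603179-125603428 on the plus strand.
Il9r: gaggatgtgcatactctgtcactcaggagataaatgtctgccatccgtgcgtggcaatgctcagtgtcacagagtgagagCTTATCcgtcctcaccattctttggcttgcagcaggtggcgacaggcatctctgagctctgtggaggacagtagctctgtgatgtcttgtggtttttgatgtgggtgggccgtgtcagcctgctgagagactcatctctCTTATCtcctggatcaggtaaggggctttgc
Il7r: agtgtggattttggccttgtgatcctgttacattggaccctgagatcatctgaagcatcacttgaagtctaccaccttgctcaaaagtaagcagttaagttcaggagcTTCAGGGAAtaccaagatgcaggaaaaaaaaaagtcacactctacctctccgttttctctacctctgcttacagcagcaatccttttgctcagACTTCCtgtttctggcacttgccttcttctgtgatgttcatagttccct
Il4ra: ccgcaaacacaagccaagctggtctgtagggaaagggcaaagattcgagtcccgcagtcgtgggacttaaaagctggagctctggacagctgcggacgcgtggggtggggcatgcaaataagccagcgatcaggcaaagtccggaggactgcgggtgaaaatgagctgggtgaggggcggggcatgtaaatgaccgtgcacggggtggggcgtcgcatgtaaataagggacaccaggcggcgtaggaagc
Il21r: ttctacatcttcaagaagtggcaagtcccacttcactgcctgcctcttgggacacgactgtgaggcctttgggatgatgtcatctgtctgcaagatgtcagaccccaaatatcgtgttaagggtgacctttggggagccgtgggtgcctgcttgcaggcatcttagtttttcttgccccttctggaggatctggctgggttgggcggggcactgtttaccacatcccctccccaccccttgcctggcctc

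RefSeq windows were found for 8 of the 10 genes, and those of Il2rb and Il10ra were not used here. The motifs were searched on both strands, and the windows of Il4ra and Il21r held none of them. GATAAG, read by GATA factors, was in the windows of Il9r and Il6ra and in 6.55% of 32851 windows of all genes. In Il9r its matches began 170 and 31 bases before the start, both on the opposite strand. The STAT5-type motif TTCNNNGAA was in the window of Il7r, 142 bases before the RefSeq start and thus inside the GENCODE gene, and in 7.02% of all windows, and the STAT6-type motif TTCNNNNGAA was in none of the 8 and in 5.85% of all. GGAAGT, an ETS motif, was in 3 of the 8 (Il7r, Il6ra and Il13ra1) and in 19.7% of all, and the E-box CACGTG was in Il6ra and in 6.02% of all. TGACTCA (AP-1, 4.46% of all), GGGNNTTTCC (NF-κB, 1.41%) and TATAAA (12.4%) were in none of the 8. The 8 windows differed in base composition. Il6st had 26 CpG and 66.0% GC, Il4ra 17 CpG and 59.6% GC, Il21r 4 CpG and 55.6% GC, Il2rg 3 CpG and 49.2% GC, and Il7r 1 CpG and 44.0% GC. A match is a description of these letters and not a measured site.

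In STAP-1 KO, 6 of the 10 chains were lower by 2-fold or more, and 1, Il21r, was higher by 2-fold or more. By this rule 22.9% of all 12507 genes at or above 0.1 FPKM in both libraries were lower and 12.3% higher, 35.2% in all, and among those whose mean was 1 FPKM or more 22.4% were lower and 11.5% higher, 33.9% in all. At 4-fold, 4 chains were lower and 1 higher, against 8.56% and 2.4% of all genes. The median log2 ratio of the 10 chains, with 0.1 FPKM added to each value, was -1.31, and that of the 10974 genes whose mean was 1 FPKM or more was -0.04, with quartiles at -0.88 and 0.59. Both shared chains were past the cut-off downwards, by less than any of the 4 ligand-specific chains that passed it. The chains below the cut-off were Il2rb, Il13ra1 and Il6ra. In bulk samples, fewer cells of a type and less RNA per cell cannot be told apart.

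**Figure D1:**
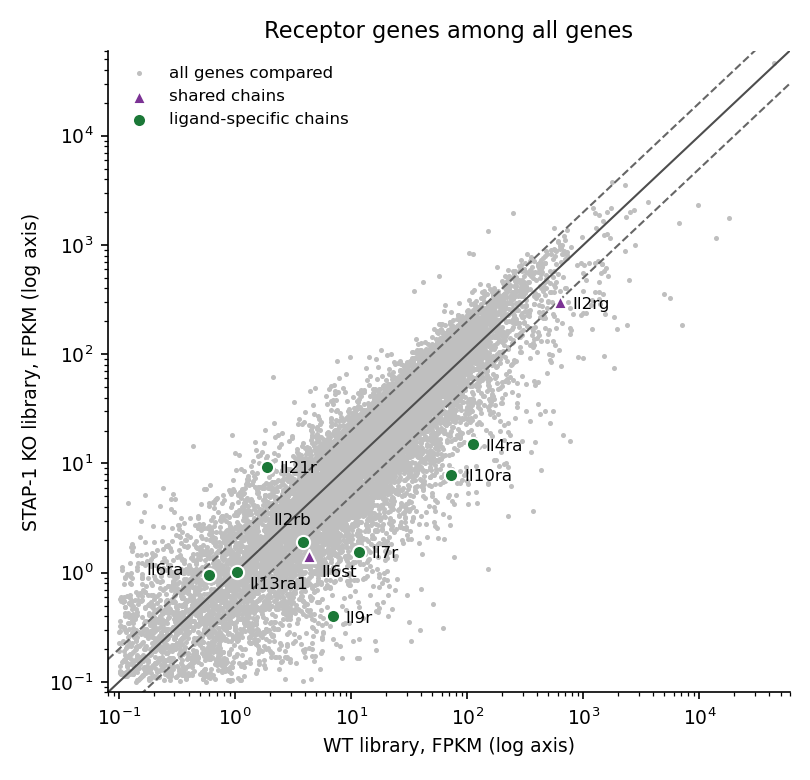
FPKM in the WT library (x axis, log scale) against the STAP-1 KO library (y axis, log scale) for the 12507 genes with at least 0.1 FPKM in both, with the shared chains as triangles and the ligand-specific chains as circles. The solid line marks equal values and the dashed lines a 2-fold difference, and 6 of the 10 chains lie below the lower dashed line while Il21r lies above the upper one.

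Il2rg was by far the most abundant of the 10 transcripts. It is on chromosome X of GRCm38 from 101264378 to 101268255 on the minus strand. It had 626 FPKM in WT against 298 FPKM in STAP-1 KO, about 6829 and 4578 reads, and was 2.10-fold lower (interval from 2.02 to 2.18). It was higher than 99.3% of the genes detected in the WT library and 97.9% of those in the STAP-1 KO library. Its exons share 728 of 2387 bases with Gm20489, annotated on the same strand, whose reads may be counted with it. Il6st, on chromosome 13 from 112464070 to 112510086 on the plus strand, was low by comparison. It had 4.35 FPKM in WT against 1.42 FPKM in STAP-1 KO, about 277 and 126 reads, and was 3.06-fold lower (2.47 to 3.81). Both shared chains were thus lower in STAP-1 KO, although Il2rg was abundant and Il6st was not.

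The ratio of the libraries varies with transcript length, and the shared chains lie at opposite ends, with longest transcripts of 1670 bases (Il2rg) and 8678 bases (Il6st). Once these were corrected for (length and GC content), Il2rg was 2.85-fold lower and Il6st 1.68-fold lower, the latter below the cut-off. With the libraries scaled to the same sum, Il2rg was below the cut-off (log2 ratio -0.97).

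The largest difference among the partners of Il2rg was in Il9r, the IL-9 binding chain, on chromosome 11 from 32187541 to 32200279. It had 6.91 FPKM in WT against 0.399 FPKM in STAP-1 KO, about 222 and 17.9 reads, and was 17.3-fold lower (10.6 to 29.6). Its ligand gene Il9 was listed at 0 FPKM in both libraries.

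Il4ra, which binds IL-4 in both IL-4 receptors, is on chromosome 7 from 125552120 to 125579474. It was the second most abundant chain in both libraries, with 112 FPKM in WT and 14.9 FPKM in STAP-1 KO, about 4233 and 789.8 reads. It was 7.48-fold lower (6.93 to 8.08), and 4.56-fold lower after the correction for length and GC content. Its exons share 571 of 6002 bases with Gm44876. Il13ra1, the chain that joins it in the type II receptor, is on chromosome X from 36112110 to 36171259 and was much lower. It had 1.04 FPKM in WT against 1.02 FPKM in STAP-1 KO, about 27.2 and 37.4 reads. The ratio of STAP-1 KO to WT was 0.981 (0.581 to 1.67), so that no difference was detectable at this depth within that interval. Il13ra2, the decoy receptor for IL-13, was listed at 0 FPKM in both libraries.

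Il7r, the IL-7 binding chain that also takes part in the TSLP receptor, is on chromosome 15 from 9505788 to 9530176. It had 11.6 FPKM in WT against 1.56 FPKM in STAP-1 KO, about 291 and 54.5 reads, and was 7.47-fold lower (5.53 to 10.1). Crlf2, the other chain of the TSLP receptor, had 41.9 and 8.59 FPKM and was 4.88-fold lower. The ligand genes went the other way, at low levels. Il7 had 0.118 FPKM in WT and 0.969 FPKM in STAP-1 KO, about 4.11 and 47.3 reads. Tslp had 0.288 and 2.57 FPKM, a ratio of 8.93 that rests on about 1.98 and 25.1 reads (2.19 to 76.7).

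Il2rb, which signals for IL-2 and IL-15, is on chromosome 15 from 78479256 to 78495271 and was just below the cut-off. It had 3.81 FPKM in WT against 1.92 FPKM in STAP-1 KO, about 114 and 80.3 reads, and was 1.98-fold lower (1.48 to 2.68). The alpha chains that raise its affinity differed in opposite directions. Il2ra, for IL-2, had 346 FPKM in WT and 24.3 FPKM in STAP-1 KO, and Il15ra, for IL-15, had 7.94 and 22.1 FPKM. The quotient of Il2rb to Il2ra was 0.0110 in WT against 0.0790 in STAP-1 KO.

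Il21r, the IL-21 binding chain, was the one member past the cut-off upwards in the values as deposited. It is on chromosome 7 from 125603429 to 125633570, on the plus strand, and starts 23955 bases after the end of Il4ra, with no other listed gene between them. It had 1.89 FPKM in WT against 9.36 FPKM in STAP-1 KO, about 32.4 and 225 reads, and was 4.95-fold higher (3.45 to 7.51). After the correction it was 4.57-fold higher. Il4ra was thus 59.0 times the level of Il21r in WT and 1.59 times in STAP-1 KO. The Il21 gene was listed at 0 FPKM in both.

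**Figure D2:**
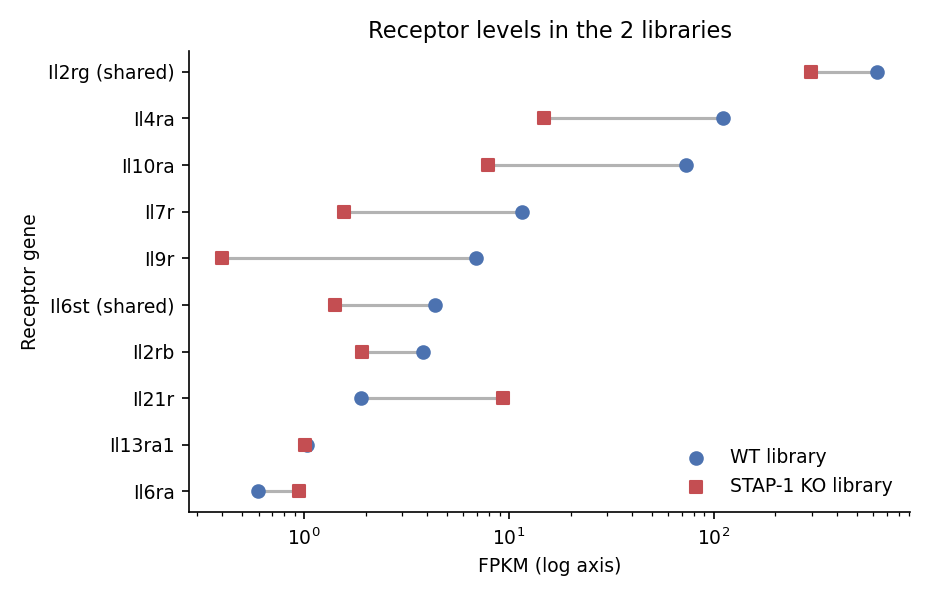
FPKM of the 10 receptor genes on a log axis in the WT library (circles) and the STAP-1 KO library (squares), 1 library each, ordered by the WT value, with grey lines that join the values of a gene. Il2rg is far to the right in both libraries, the square lies to the right of the circle for Il21r and Il6ra, and the values of Il13ra1 nearly coincide.

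In the gp130 group, Il6ra, the IL-6 binding chain, on chromosome 3 from 89864059 to 89913196, was the lowest chain of the WT library. It had 0.596 FPKM in WT against 0.945 FPKM in STAP-1 KO, about 37.8 and 83.5 reads, a ratio of 1.59 (1.07 to 2.39) below the cut-off. Its longest transcript has 8639 bases, and after the correction for length and GC content the ratio was 3.26, past the cut-off. Of its exon bases, 242 of 8642 are shared with Gm42809 on the opposite strand, and the library kit does not keep the strand. Its ligand gene Il6 had 384 FPKM in WT and 52.1 FPKM in STAP-1 KO. Among the other alpha chains and partners of gp130, Lifr had 1.58 and 0.288 FPKM and Il11ra1 3.69 and 10.3 FPKM, both past the cut-off in opposite directions. Il27ra had 15.2 and 8.69 FPKM, below the cut-off. Osmr was at 0.0288 FPKM in WT and listed at 0 FPKM in STAP-1 KO, and Cntfr was listed at 0 FPKM in both.

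Il10ra, on chromosome 9 from 45253837 to 45269149, ranked below Il2rg and Il4ra and above the other chains in the WT library. It had 73.1 FPKM in WT and 7.91 FPKM in STAP-1 KO, about 1805 and 273 reads, and was 9.24-fold lower (8.14 to 10.5). After the correction it was 8.15-fold lower. Its partner Il10rb, which other cytokines of the IL-10 family also use, had 47.4 and 38.6 FPKM, below the cut-off. The quotient of Il10rb to Il10ra was 0.649 in WT against 4.88 in STAP-1 KO. The ligand gene Il10 was low, with 0.607 and 2.26 FPKM, about 4.97 and 26.2 reads.

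**Figure D3:**
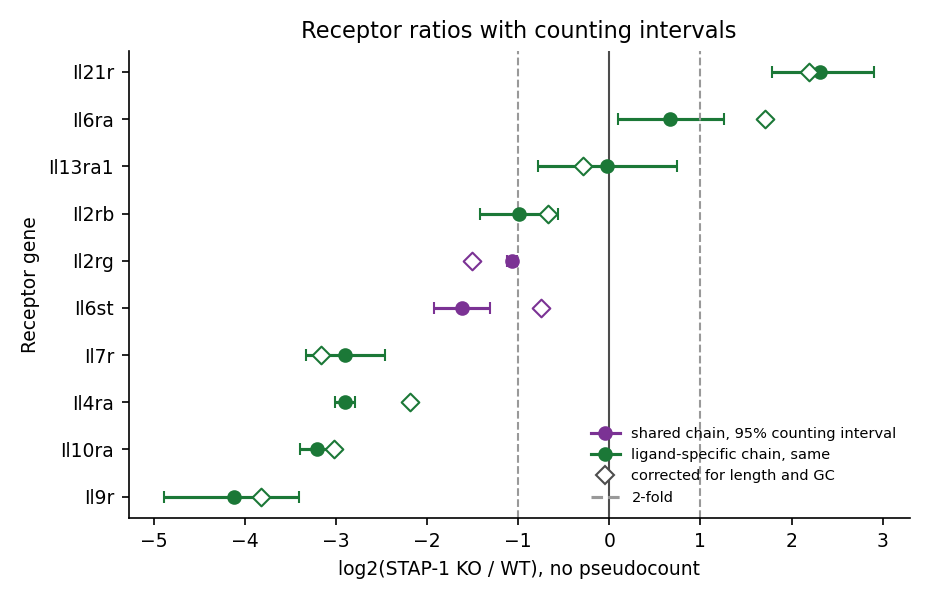
Log2 ratio of STAP-1 KO to WT for each receptor gene without a pseudocount (filled circles), with 95% intervals that cover counting error only, and the same corrected for length and GC content (open diamonds). Shared chains are purple, ligand-specific chains green, and dashed lines mark 2-fold. Il9r, Il10ra, Il4ra and Il7r lie below -2 on both scales, whereas Il6st and Il6ra cross a dashed line after the correction.

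Shared chains were next compared with ligand-specific chains. The mean log2 ratio of Il2rg and Il6st was -1.31, and the 8 ligand-specific chains had a median of -1.89 and a range from -3.81 to 2.25. With means on both sides the values were -1.31 (shared) and -1.36 (ligand-specific), and -1.11 and -1.12 after the correction for length and GC content. The difference of the shared mean and the ligand-specific median was 0.58, and 0.32 after that correction. It depended on the statistic and on which genes were compared. It was -0.36 when Il10ra was left out, since it uses neither shared chain. With Il2rb and Il4ra, which each serve a pair of cytokines, counted as shared it was -0.19, but 0.11 with medians on both sides. With Il7r, which serves IL-7 and TSLP, counted as shared too it was -1.52 with medians on both sides. The shared chains, at -1.07 (Il2rg) and -1.55 (Il6st), lay within the range of the ligand-specific chains. The widths are not compared, since a range over 8 genes tends to exceed a gap between 2. These are descriptions of 2 and 8 genes, which are not replicates.

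The level of Il2rg relative to its partners moved in different ways. The summed FPKM of Il2rb, Il4ra, Il7r, Il9r and Il21r was 136 in WT against 28.2 in STAP-1 KO, 4.82-fold lower, and Il2rg was 4.61 times this sum in WT and 10.6 times in STAP-1 KO. Il2rg over Il4ra was 5.61 in WT and 20 in STAP-1 KO, over Il7r 53.8 and 191, and over Il9r 90.6 and 748. Over Il2rb it was 165 and 155, and over Il21r it was 331 and 31.8. Corrected for length and GC content, the quotient over Il2rb was 1.79-fold lower in STAP-1 KO, that over Il4ra was 1.60-fold higher instead of 3.56-fold, and that over Il9r was 4.96-fold higher instead of 8.25-fold. In every one of these pairs and in both libraries, Il2rg transcripts outnumbered those of the partner per length. For gp130, Il6st over Il6ra was 7.30 in WT and 1.5 in STAP-1 KO. Il2rg alone made up 74.5% of the summed FPKM of the 10 chains in WT and 88.3% in STAP-1 KO.

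**Figure D4:**
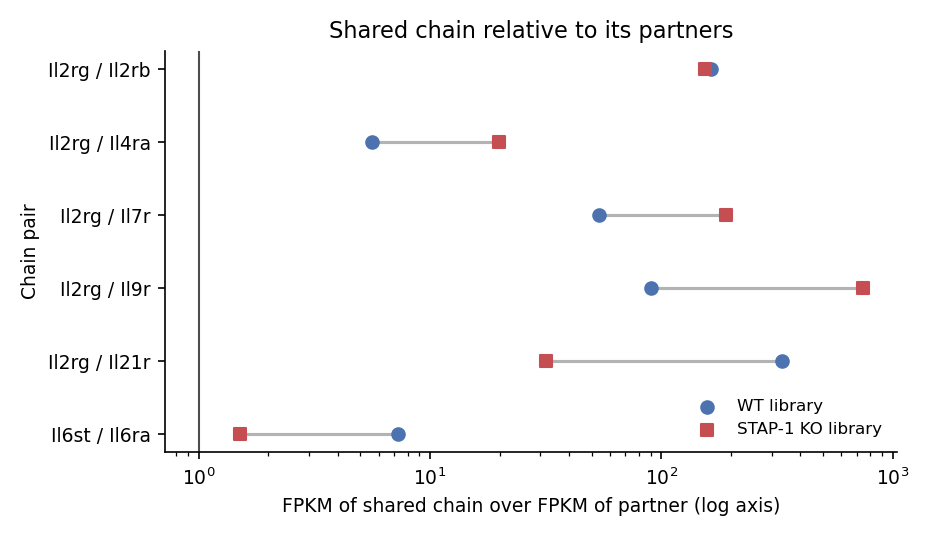
FPKM of a shared chain divided by that of its partner chain (log axis) in the WT library (circles) and the STAP-1 KO library (squares), for 5 partners of Il2rg and for Il6ra with Il6st. All quotients lie above the line at 1, and the square lies to the right for Il4ra, Il7r and Il9r and to the left for Il21r and Il6ra.

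The order of the levels was not the same in both libraries. In WT it ran from Il2rg over Il4ra, Il10ra, Il7r, Il9r, Il6st, Il2rb, Il21r and Il13ra1 to Il6ra. Of these neighbours, only the interval of Il6st over Il2rb (1.14, from 0.914 to 1.43) held 1. In STAP-1 KO Il21r came next after Il4ra, and Il9r was last. There the neighbours Il21r and Il10ra (1.18, from 0.987 to 1.42) and each of the neighbours from Il2rb over Il7r, Il6st and Il13ra1 to Il6ra had an interval that held 1.

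The remaining genes of these pathways were described by lists written from general knowledge, but with earlier results of these data known. Their counts are descriptions, given beside the 22.9% lower and 12.3% higher among all genes compared, that is, at or above 0.1 FPKM in both libraries. Of 14 other chains of the same receptors, 3 were lower and 3 higher by the 2-fold rule, 4 were below 0.1 FPKM in at least 1 library, and the median log2 ratio of those whose mean was 1 FPKM or more was -0.43. The lower ones were Il2ra, Crlf2 and Lifr. Of 8 ligands of the common gamma family, 5 of which were compared, 2 were lower and 2 higher, with a median of -0.90 over 4 genes that was -1.54 after the correction and turned to 0.89 with every ligand above 0 FPKM in a library included. Il13 had 19.8 FPKM in WT and 1.44 FPKM in STAP-1 KO, and Il4 had 274 and 42.2 FPKM. Of 10 ligands of the gp130 family and IL-10, 7 of which were compared, 4 were lower and 1, Il10, was higher, with a median of -1.31 over 6 genes that was -0.57 with every ligand above 0 FPKM in a library included. Lif had 73.5 and 8.85 FPKM and Osm 597 and 204 FPKM. Ligands and their chains did not always move together. Il4 was lower with Il4ra, and Il6, Lif and Osm were lower with Il6st, whose difference was below the cut-off after correction. Il13 was lower while Il13ra1 was below the cut-off, Il6 was lower while the ratio of Il6ra was above 1, and Il7, Tslp and Il10 were higher while Il7r and Il10ra were lower.

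Of the 11 JAK kinases and STAT factors, which were all compared, 6 were lower and none was higher, against 22.9% and 12.3% of all genes, with a median log2 ratio of -1.10 that was -0.47 after the correction for length and GC content. Tyk2 had 31.8 and 8.17 FPKM, Jak2 48.2 and 13.1 FPKM and Jak1 181 and 54.0 FPKM, whereas Jak3, the kinase bound by Il2rg, had 14.3 and 14.4 FPKM. Of 13 feedback inhibitors, all compared, 4 were lower and none was higher, against the same 22.9% and 12.3% of all genes, with a median of -0.31. Among the lower ones were Cish (432 and 133 FPKM), Socs1 (78.2 and 24.1 FPKM) and Pias3 (7.67 and 2.69 FPKM). Of 20 target genes, 18 of which were compared, 7 were lower and 3 higher, with a median of -0.91 that was -0.58 after the correction. Id2, an inhibitor of helix-loop-helix factors, had 896 and 94.5 FPKM. Chi3l3, an older symbol of the STAT6 target Chil3, had 54.6 and 2.58 FPKM, and reads of its near-identical paralogs may be divided between them. Tnfrsf1a, a TNF receptor, had 5.07 and 21.3 FPKM.

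**Figure D5:**
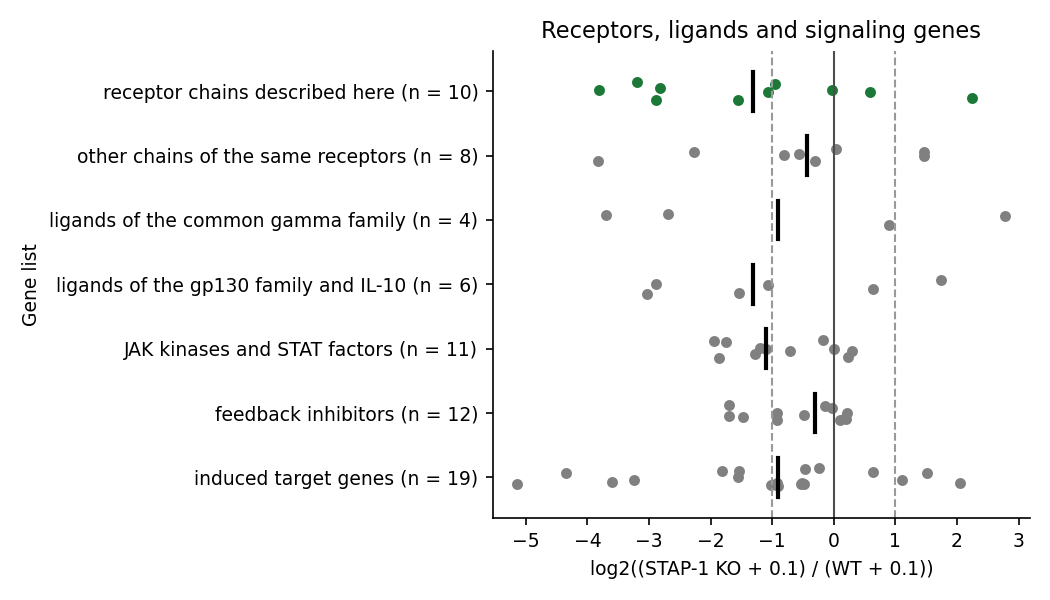
Log2 ratio of STAP-1 KO to WT with 0.1 FPKM added to each value (x axis) for the 10 receptor genes (green) and for the genes of 6 pathway lists whose mean was 1 FPKM or more (grey), with a black bar at each median and dashed lines at 2-fold. The bars lie between -1.31 and -0.31, and the spread of single genes within each list is wider than that.

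Markers of other cell types were counted by the same 2-fold rule, by which 22.9% of all genes compared were lower and 12.3% higher. All 12 mast cell and basophil markers were at or above 0.1 FPKM in both libraries, 11 of them were past the cut-off downwards, and their summed FPKM was 52168 in WT and 5395 in STAP-1 KO, 9.67-fold lower. Of 11 listed T cell markers, 10 of which were compared, 1 was lower and 4 were higher, and their sum was 18.1 and 53.2 FPKM, of which Lck gave 11.8 and 41.9 FPKM. The higher ones were Cd3g, Cd4, Cd5 and Lck, and the lower one was Cd8a. Of the T cell receptor complex, Cd3g had 1.80 and 5.04 FPKM. Below the cut-off were Cd3d (0.713 and 0.681 FPKM), Cd3e (0.869 and 1.09 FPKM) and Cd247 (1.08 and 1.87 FPKM). Cd8b1 was listed at 0 FPKM in both. Of 11 listed NK cell and innate lymphoid markers, 7 of which were compared, 4 were lower and 1 was higher, and their sum was 551 and 39.6 FPKM, of which Il1rl1, which mast cells also express, gave 521 and 23.3 FPKM. Of 12 B cell markers, 4 of which were compared, 1 was lower and 2 were higher, and Pax5 and Ebf1 were listed at 0 FPKM in both libraries. The sum of the B cell list was 967 and 246 FPKM, of which Cd74, which many antigen-presenting cells express, gave 963 and 226 FPKM. The other 11 summed to 4.42 and 19.6 FPKM, 4.44-fold higher, of which Cd79b, of the B cell receptor complex, gave 3.10 and 17.8 FPKM. Cd79a, of the same complex, was listed at 0 FPKM in WT and had 0.171 FPKM in STAP-1 KO.

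Of the 12 neutrophil granule markers, 11 of which were compared, 4 were higher and 5 lower, with sums of 937 and 4349 FPKM and a median log2 ratio of -0.92. Mpo, Elane, Prtn3 and Ctsg, which code for primary granule proteins, carried the higher sum (522 and 4163 FPKM), and the other 8 summed to 415 and 186 FPKM. The 10 eosinophil markers, 7 of which were compared, had 3 higher and 2 lower members and sums of 39.3 and 91.7 FPKM. Of these sums Prg2 gave 2.12 and 61.7 FPKM and Siglec5 27.9 and 11.4 FPKM. The 12 monocyte and macrophage markers had 4 higher and 4 lower members and sums of 235 and 247 FPKM. Of the 12 LSK and stem cell markers, 5 were lower and 2 higher, and their sum was 1508 and 449.6 FPKM, 3.36-fold lower. Kit and Gata2, the latter also in the mast cell and basophil list, gave most of this gap, and the other 10 summed to 631 and 364 FPKM, 1.73-fold lower. The part of these populations in the receptor values was not tested.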

How the data were processed

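RNA of sorted GFP+ CD45.2+ LSK cells was measured by RNA-seq, in 1 WT and 1 STAP-1 KO library (SMART-Seq v4 cDNA, single reads of 75 bases, strand not kept). Reads were aligned by the authors to mm10 using TopHat2 2.0.13 and Bowtie2 2.2.3 and deposited FPKM values from Cuffnorm (Cufflinks 2.2.1, per the submitters' processing notes). The annotation and the scaling of the libraries are not given in the sources used here. Since FPKM is scaled by length and depth, the deposited values hold no read numbers.

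Ratios were computed from these values in Python 3.11.15 (pandas 2.3.3, scipy 1.17.1, numpy 2.4.6). A gene with 0.1 FPKM or more in both libraries was past the cut-off when the ratio, without a pseudocount, reached 2. Log2 ratios of lists used a pseudocount of 0.1 FPKM and members whose mean was 1 FPKM or more. The receptor genes and the lists were chosen with earlier results of these data known. Besides the receptors, the chains paired with them and Stap1, the text names up to 3 genes of each pathway list that were past the cut-off and had the largest log2 ratios when 1 FPKM was added. Further list members, the sorting antigens, Jak3 and the single markers were named after their values were seen.

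Gene models came from GENCODE M21 (GRCm38), which matched 20911 symbols as written with 1887 more by older symbols and 486 left unmatched. Effective depths were the values at which low FPKM of genes with 1 transcript became whole reads (57.4% of 277 WT values and 57.5% of 318 STAP-1 KO values within 0.02 of a whole number, where chance gives 4%). Estimated reads used the longest transcript less 224 (WT) or 204 (STAP-1 KO) bases, and intervals are exact binomial (95%). The correction took off the median log2 ratio of 20 bins of transcript length and then of 20 bins of GC content. Simulated libraries were drawn with counting noise only from the same mean values, with changes planted in genes whose mean was 1 FPKM or more. In them 100 of 100 genes raised 4-fold and 100 of 100 lowered were recovered, and 282 of 12629 unchanged genes passed the cut-off. These counts give no rate of false calls for the real libraries, which also differ by mouse, sort and preparation. No model was fitted and no p-value computed.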

Additional observations from a re-analysis of the deposited data

How the results depend on the processing

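The number of receptor genes past the cut-off stayed between 5 and 7 under the 8 alternatives tried, and Il21r was higher and Il4ra, Il7r and Il10ra lower in each of them. Il9r was not compared at a floor of 1 FPKM, Il2rg fell below the cut-off on the TPM scale, Il2rg and Il6st at 4-fold, and Il6st when corrected for length and GC content, which put Il6ra past it. Over all genes, 4398 were past the cut-off, and 1371 at 4-fold (1071 lower and 300 higher). Mean log2 ratios were -1.31 for the shared and -1.36 for the ligand-specific chains. The difference between shared and ligand-specific chains, as a mean less a median, was 0.58. It was 0.32 when corrected for length and GC content, and -0.36 without Il10ra. With Il2rb and Il4ra counted as shared it was -0.19 as a mean less a median and 0.11 with medians on both sides, and with Il7r counted as shared too it was -1.52 with medians. The last 2 alternatives were chosen after seeing the data. Among log2 ratios of single receptors, 61 of 70 values under alternatives moved by less than the counting error of the ratio, and the widest range was that of Il9r, from -4.08 to -2.50 with the pseudocount. Among list medians, 39 of 48 moved by less than the counting error of the middle genes, and that of the common gamma ligands turned from -0.90 to 0.89 with genes of lower mean included. The TPM scale shifted log2 ratios without a pseudocount by 0.10. No paired analysis was possible because each genotype has 1 library. Among the receptors, the ratios with the fewest estimated reads rest on 27.2 for Il13ra1, 32.4 for Il21r and 37.8 for Il6ra in WT and 17.9 for Il9r in STAP-1 KO, and those of the ligands Tslp, Il7 and Il10 on 1.98, 4.11 and 4.97 in WT.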
